A study of Mus musculus with 6 samples.

Results

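The numbered Zfp genes of the mouse are named with Zfp and a number alone and encode, for the most part, proteins with DNA-binding zinc fingers. The table held 348 of them (Zfp36, an mRNA decay factor of another family, was left out). FPKM here means fragments per kilobase of transcript on a scale set per library, which did not follow read totals alone. Of the 348, 181, among 23398 genes in all, were chosen by their level, a mean of at least 1 FPKM over all 6 libraries. The mean level thus selected the members and is given as a description. The rule did not use the difference between treatments as such, but the mean covers both groups, so a change can decide membership near the limit. The vehicle mean was under 1 FPKM in 11 members (7 tested, 1 of them called, Zfp558, higher) and the nanoparticle mean in 10 (10 tested, 4 called, Zfp141, Zfp266, Zfp467 and Zfp956, all lower). Of the numbered Zfp genes left out, 6 had a vehicle mean of 1 FPKM or more (3 called lower, Zfp395, Zfp532 and Zfp788) and 2 a nanoparticle mean of 1 FPKM or more. The libraries came from bone marrow derived dendritic cells of mice, sentinel cells that display captured antigen to T cells, grown in DMEM with 10% serum. The cells were exposed to Ca(OH)2 nanoparticles (calcium hydroxide particles, 3 libraries) or to vehicle (3 libraries) for 12 hours, and neither strain nor age is given. The labels do not say that the libraries of a group came from separate animals or cultures, so p-values measure only the spread between these libraries, which may be technical.

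A C2H2 zinc finger is a short fold held by a zinc ion between pairs of cysteines and histidines, and a row of such fingers reads DNA along its length. Many of these proteins also carry a KRAB box, which recruits the corepressor TRIM28 (KAP1) and through it the histone methyltransferase SETDB1 and heterochromatin protein 1. Together they silence endogenous retroviruses and other repeats. Genes for KRAB zinc finger proteins arose by tandem duplication and lie in clusters of near copies. Other members of the family act quite differently, in ribosome quality control, splicing or as scaffolds of corepressor complexes.

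The libraries were of similar depth, with 16026802 to 20206879 reads each, recovered from the values over genes that gave whole reads in all 6. Nanoparticle library 1 stood apart from the other nanoparticle libraries: the chi-square per degree of freedom over recovered reads was 203 and 273 against libraries 2 and 3, compared with 13.1 between those 2 and 2.96 to 5.93 between vehicle libraries. The main counts that rest on it are given with and without it, and some class, run and gene values with it alone. Dendritic cell markers (12 genes, 10 tested, 1 called higher and 3 lower) summed to 6151 to 6593 FPKM in vehicle libraries, 3449 in nanoparticle library 1 and 7123 and 7775 in nanoparticle libraries 2 and 3. Cd74, H2-Ab1 and H2-Aa, the most abundant, make up most of this sum, and the calls were Irf8 higher and Cd209a, Clec10a and Zbtb46 lower. Flt3, a defining receptor of dendritic cell growth with Flt3 ligand, was under 0.1 FPKM in every library. Macrophage markers (8 genes) summed to 721 to 737 FPKM with vehicle and 1760, 1311 and 1305 FPKM with nanoparticles 1 to 3, with 4 of 8 higher and 2 lower. Cycling cell markers (8 genes, 7 called lower) summed to between 55.1 and 63.1 FPKM with vehicle and between 14.7 and 15.3 FPKM with nanoparticles. Neutrophil markers (10 genes, 4 tested, Mpo under 0.1 FPKM) summed to between 266 and 299 FPKM with vehicle and between 185 and 257 FPKM with nanoparticles. Their fall in sum was that of Mmp8 (245 ± 14.5 to 130 ± 2.28 FPKM, SD, n = 3 each), the 1 called lower, while Csf3r and S100a8 were called higher. Lymphocyte markers (7 genes) summed to at most 0.406 FPKM. Mast cell and basophil markers (6 listed, 5 in the table, Mcpt8 under 0.1 FPKM) summed to 3.71 to 5.82 FPKM with vehicle and 1.99 to 4.25 with nanoparticles. The part of these cell types in the results that follow was not tested, and in bulk RNA fewer cells of a type and less RNA per cell cannot be told apart.

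Few numbered Zfp genes differed between the groups, and most of those that did moved less than 2-fold. Of the 181 members, 177 passed the filter on low values (at least 1 FPKM in at least 3 libraries), and 35 of these (19.8%) differed between nanoparticles and vehicle at an adjusted p under 0.05 (limma on log2(FPKM + 1), Benjamini-Hochberg over 10682 genes), against 33.2% of all genes tested. Among the 35, 14 were higher with nanoparticles, where 17.0% of all genes tested were higher, and 21 were lower, where 16.2% of all were. The median log2 change was 0.02 over the members and -0.00 over all genes. A log2 change of 1 or more in size was found in 2 members (Zfp558 and Zfp652) of 177, or 1.13%, against 14.1% of all genes tested. The means of the 2 groups lay within 1.5-fold of each other in 138 members. Among members with a mean under 10 FPKM, 31 of 169 (18.3%) were called, against 2074 of 6741 genes tested under 10 FPKM (30.8%). The levels still differed, with a median mean of 2.36 FPKM in these members and 3.46 FPKM in these genes. A ratio of means of 2 or more in either direction was found in 3.95% of members and 19.6% of all genes tested.

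These values rest on how the libraries were scaled. The deposited scale did not follow the recovered read totals alone. A read over 1 kilobase stood for 0.0479 FPKM in vehicle library 3 and 0.0612 FPKM in nanoparticle library 1. The reads recovered in these libraries were 16908912 and 16451456. On the deposited scale the median gene did not move, whereas scaling to recovered read totals shifted the median of all genes to -0.27 and that of the members to -0.22, and scaling to equal sums of FPKM shifted them to -0.38 and -0.31. Relative to the median gene the members thus stayed close to 0 on each scale, but the split of calls moved from 14 higher and 21 lower to 3 higher and 37 lower with read totals, and to 1 higher and 47 lower with equal sums. Over all genes tested the split moved likewise, from 1817 higher and 1733 lower to 1121 and 3528 with read totals (43.5% called) and to 881 and 4307 with equal sums (48.6% called). No member among the 35 changed sign on either scale. Zfp558, Zfp455 and Zfp653 were the 3 still called higher with read totals, and Zfp558 the 1 with equal sums.

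**Figure D1:**
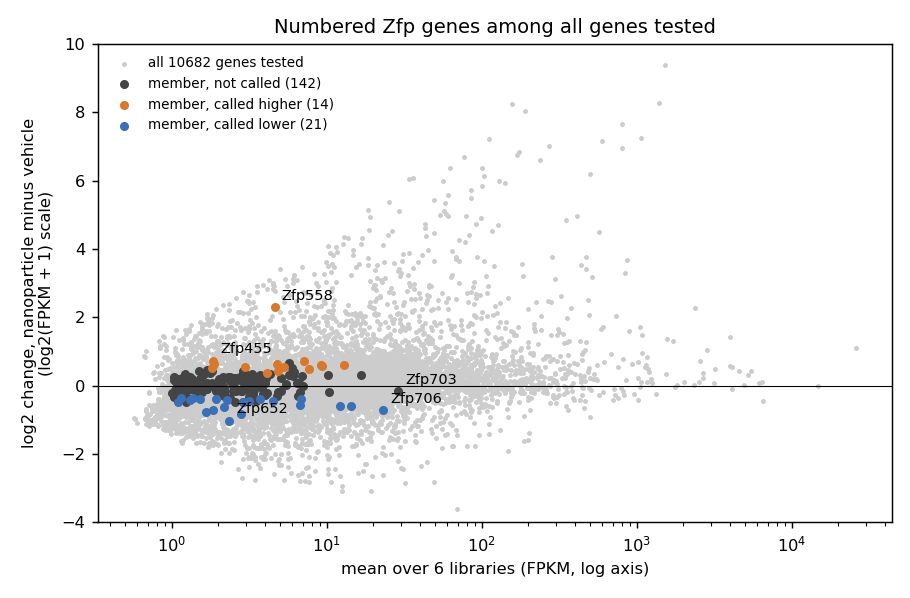
Each point is 1 gene tested, with its mean over 6 libraries in FPKM on a log axis and its log2 change (nanoparticle minus vehicle, log2(FPKM + 1) scale) on the other; grey points are all 10682 genes, dark points the members. Apart from Zfp558 at 2.30, the members lie in a narrow band around 0, with 14 called higher in orange and 21 called lower in blue.

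As a family the members were expressed at low levels. Their mean FPKM ranged from 1.00 to 28.7 with a median of 2.37; the 177 tested had a median of 2.47, compared with 6.25 over all genes tested. The mean was under 2 FPKM in 71 members and under 5 FPKM in 151, and it reached 10 FPKM in 8. The lowest count of any of the 173 members with recovered whole reads was 19 reads in a library. Summed over the members, vehicle libraries held 605, 599 and 606 FPKM, and nanoparticle libraries 1 to 3 held 727, 575 and 568 FPKM. On this scale library 1 was the highest of the 6 and libraries 2 and 3 the lowest. As a share of all FPKM of a library the members made up 0.184%, 0.185% and 0.188% with vehicle and 0.182%, 0.124% and 0.116% with nanoparticles, so that library 1 was then just under the vehicle libraries.

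The most abundant member was Zfp703, a transcriptional cofactor amplified in luminal breast tumours, with 31.2, 30.8 and 29.1 FPKM in vehicle libraries and 31.0, 26.7 and 23.3 FPKM in nanoparticle libraries. Its groups overlapped and it was not called (log2 change -0.17, SE 0.127, limma adjusted p = 0.35). Next came Zfp706, a small protein known to repress Klf4 in embryonic stem cells, with 30.4, 27.8 and 27.7 FPKM in vehicle libraries and 12.2, 18.5 and 21.8 FPKM in nanoparticle libraries. It fell (log2 change -0.72, SE 0.208, adjusted p = 0.041), with library 1 the lowest, and the change was -0.49 without that library (adjusted p = 0.0025). It missed the threshold without any 1 vehicle library or nanoparticle library 2 (adjusted p = 0.082 to 0.135). Zfp207 (BuGZ), a microtubule-binding protein of the mitotic spindle and kinetochore, stood at 15.5, 13.7 and 15.1 FPKM with vehicle and 17.2, 17.7 and 20.4 with nanoparticles. Its groups did not overlap, yet it missed the threshold (log2 change 0.30, adjusted p = 0.083), and it was called higher without nanoparticle library 1 (0.34, adjusted p = 0.012). In order of their mean, Zfp710, Zfp991 and Zfp106 completed the 6 most abundant, and all 3 passed the test.

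Zfp558, a KRAB gene with 9 fingers on chromosome 9 (chr9:18455575-18478268, minus strand, GENCODE M21 on GRCm38), had the largest change of any member tested. It reached the mean of 1 FPKM through its nanoparticle values, and 1 vehicle library reached 1 FPKM, so its selection was not independent of its increase. Its 3 vehicle libraries had 0.611, 0.742 and 1.03 FPKM and its nanoparticle libraries 13.2, 6.94 and 5.06 FPKM. Every nanoparticle library was thus several times the highest vehicle library, and library 1 was the highest of them. The ratio of means was 10.6, from 0.794 ± 0.214 to 8.41 ± 4.28 FPKM (SD, n = 3 each), and the log2 change was 2.30 (SE 0.31, limma adjusted p = 0.0024). Without nanoparticle library 1 it was 1.96 (adjusted p = 7.8e-05). The values rested on 43 to 764 recovered reads. No 50-base stretch of its longest coding transcript was found in an annotated transcript of another gene. No exon of another protein-coding or long noncoding gene overlapped its exons, and other gene types were not searched.

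The other large increases were smaller. Zfp455, a KRAB gene of the cluster on chromosome 13, had 1.20, 0.986 and 1.18 FPKM with vehicle and 2.76, 1.87 and 3.02 FPKM with nanoparticles (ratio of means 2.27, log2 change 0.73, SE 0.15, adjusted p = 0.012). Zfp653, which modulates the nuclear receptor SF-1, had 1.36, 1.38 and 0.999 FPKM with vehicle and 2.62, 2.15 and 2.75 FPKM with nanoparticles (ratio 2.01, log2 change 0.64, adjusted p = 0.0088). In both genes every nanoparticle library exceeded every vehicle library. Zfp513, in which variants are linked to retinitis pigmentosa, went from 6.53, 7.84 and 6.98 FPKM to 11.0, 10.6 and 12.3 FPKM (log2 change 0.60, SE 0.109, adjusted p = 0.0073). Zfp598, the ubiquitin ligase that marks collided ribosomes, went from 7.96, 6.57 and 7.33 FPKM to 12.7, 12.0 and 9.13 FPKM (0.56, SE 0.147, adjusted p = 0.029). Zfp622, a factor of large ribosomal subunit assembly, went from 6.59, 6.13 and 5.98 FPKM to 7.92, 10.2 and 9.42 FPKM (0.49, SE 0.116, adjusted p = 0.02). These 2 genes of translation were called higher on the deposited scale, and neither passed the threshold with read totals (Zfp598 0.26, adjusted p = 0.22; Zfp622 0.19, adjusted p = 0.21). Single libraries also decided some of these calls: Zfp455 missed the threshold without vehicle library 2 (adjusted p = 0.056), Zfp598 without any 1 vehicle library or nanoparticle library 2 (0.068 to 0.118), and Zfp622 without any 1 library other than nanoparticle library 1 (0.051 to 0.094).

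On chromosome 4, 2 of 4 near copies described here were called higher, with limits on how far they can be told apart. Zfp992 had 5.44, 4.77 and 5.03 FPKM with vehicle and 10.7, 9.39 and 7.23 FPKM with nanoparticles (log2 change 0.72, SE 0.149, adjusted p = 0.012). Zfp991 had 10.8, 9.55 and 10.0 FPKM with vehicle and 18.1, 13.4 and 16.1 FPKM with nanoparticles (log2 change 0.60, SE 0.131, adjusted p = 0.015). In both, the groups did not overlap. Of the 50-base stretches in their longest coding transcripts, 84.9% in Zfp991 and 42.4% in Zfp992 also occur in a transcript of another gene. Reads may thus be split between copies in a way that is not stated. The neighbour Zfp993 (86.6% shared, not called) had 4.53, 3.05 and 4.24 FPKM with vehicle and 11.8, 3.74 and 6.67 FPKM with nanoparticles, and its groups overlapped. Zfp984 (51.1% shared) was not called either, at 9.22, 8.71 and 8.90 FPKM against 13.2, 10.3 and 10.4 FPKM (log2 change 0.30, adjusted p = 0.104). Zfp617 on chromosome 8, also a KRAB gene, rose from 3.62, 3.10 and 3.90 FPKM to 7.31, 4.90 and 5.83 FPKM (log2 change 0.62, SE 0.153, adjusted p = 0.023), with 38.6% of its 50-base stretches shared. Zfp992 and Zfp991 missed the threshold without vehicle library 2 or 3 (adjusted p = 0.055 to 0.074), and Zfp617 without any 1 vehicle library or nanoparticle library 3 (0.052 to 0.098). In all, 18 members shared at least 20% of these stretches with another gene. Exons of 46 overlapped those of another protein-coding or long noncoding gene. Among them were Zfp513 (with Snx17), Zfp617 (with Zfp882), Zfp653, Zfp706, Zfp710, Zfp106 and Zfp608. The remaining calls with higher values were Zfp1, Zfp180, Zfp523 (a paralogue of Zfp143), Zfp637 and Zfp800, with log2 changes of 0.38 to 0.55.

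Zfp652 (chr11:95712673-95835115, plus strand) fell most. This repressor, a partner of the ETO-family corepressor CBFA2T3, had 3.25, 3.59 and 3.67 FPKM in vehicle libraries and 1.25, 1.21 and 1.16 FPKM in nanoparticle libraries. The nanoparticle libraries, library 1 included, lay closer together than the vehicle libraries and well under all of them. Means were 3.50 ± 0.221 FPKM with vehicle and 1.20 ± 0.0486 FPKM after treatment (SD, n = 3 each), a ratio of 2.91, and the log2 change of -1.03 (SE 0.0912) had the smallest adjusted p of any member, 0.00051. Its exons overlap those of Abi3 and Phospho1, and whether the counting kept them apart is not stated.

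Zfp608, known to repress the Rag recombinase genes in thymocytes, fell from 4.01, 3.76 and 3.78 FPKM to 1.73, 1.32 and 2.13 FPKM (log2 change -0.84, SE 0.13, adjusted p = 0.004). Zfp467 (EZI), which promotes nuclear retention of STAT3, fell from 2.24, 2.42 and 2.35 FPKM to 0.763, 1.26 and 0.866 FPKM (-0.77, SE 0.123, adjusted p = 0.0044). Zfp318, which in B cells allows transcription to run through to the IgD exons, fell from 2.71, 2.42 and 2.48 FPKM to 1.58, 1.02 and 0.898 FPKM (-0.72, SE 0.14, adjusted p = 0.0093). In these 3 genes the vehicle to nanoparticle ratio of means lay between 2.18 and 2.42, and no nanoparticle library reached a vehicle library. Zfp472, a KRAB gene on chromosome 17, went from 2.32, 2.87 and 3.33 FPKM to 1.37, 1.96 and 1.14 FPKM (-0.63, SE 0.164, adjusted p = 0.028). Zfp710 went from 17.2, 17.0 and 18.2 FPKM to 11.6, 10.3 and 11.3 FPKM (-0.61, SE 0.094, adjusted p = 0.0039). Zfp106, an RNA-binding protein needed by muscle and motor neurons, went from 14.1, 15.1 and 15.0 FPKM to 11.2, 9.17 and 8.14 FPKM (-0.59, SE 0.129, adjusted p = 0.014). In each of these genes, too, the groups did not overlap. Zfp472 missed the threshold without vehicle library 2 or 3 or nanoparticle library 3 (adjusted p = 0.069 to 0.107), and Zfp106 without any 1 vehicle library or nanoparticle library 2 (0.052 to 0.069). The other 13 calls with lower values, Zfp146, Zfp367, Zfp956, Zfp592, Zfp692, Zfp266, Zfp326, Zfp251, Zfp120, Zfp704, Zfp217, Zfp366 and Zfp141, had log2 changes of -0.58 to -0.36.

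**Figure D2:**
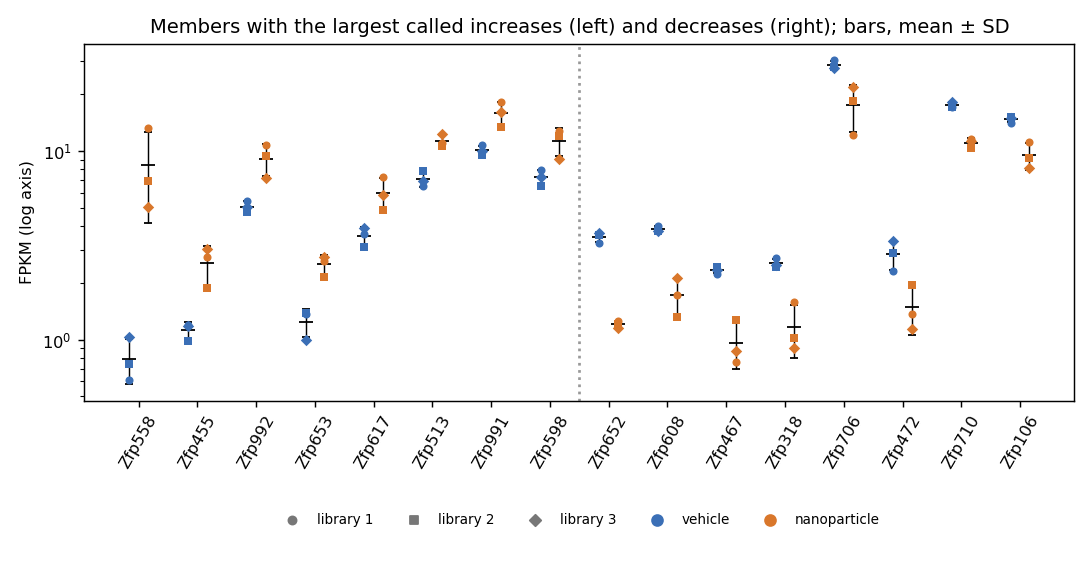
Values of the 8 members with the largest called increases and the 8 with the largest called decreases, in FPKM on a log axis; blue symbols are vehicle and orange symbols nanoparticle libraries, the symbol gives the library number, and bars show mean ± SD (n = 3). In all 16 the groups do not overlap; Zfp558 spans 0.611 to 13.2 FPKM, and Zfp652 shows the tightest nanoparticle values.

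Zfp366 (DC-SCRIPT), a nuclear receptor corepressor known as a marker of conventional dendritic cells, is singled out here after its values were seen. It had 1.51, 1.89 and 1.65 FPKM with vehicle and 1.07, 1.24 and 0.886 FPKM with nanoparticles, so that the groups did not overlap (log2 change -0.38, SE 0.113, limma adjusted p = 0.044). It missed the threshold when any 1 library other than nanoparticle library 1 was left out (adjusted p = 0.053 to 0.162).

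Of 26 members listed for a known role whatever their values, 2 were higher (Zfp598 and Zfp622), 5 were lower and 19 were not called, against 17.0% of all genes tested higher and 16.2% lower, with a median log2 change of -0.15. Among those called lower, Zfp217, a scaffold of CtBP and LSD1 corepressor complexes, had 7.82, 7.80 and 7.97 FPKM with vehicle and 5.94, 5.95 and 5.55 FPKM with nanoparticles (log2 change -0.38, SE 0.0852, adjusted p = 0.016). Zfp592 had 5.74, 5.49 and 4.99 FPKM with vehicle and 4.02, 3.58 and 3.35 FPKM with nanoparticles (-0.46, SE 0.103, adjusted p = 0.016). Zfp217 missed the threshold without any 1 vehicle library (adjusted p = 0.079 to 0.089), and Zfp592 without vehicle library 1 or 2 or nanoparticle library 2 (0.053 to 0.081). Zfp592 forms the Z3 complex with Zfp687 and Zfp532. Zfp687 was not called (1.75, 1.71 and 1.57 against 1.99, 0.975 and 0.95 FPKM, adjusted p = 0.35), with nanoparticle library 1 above and libraries 2 and 3 below every vehicle library. Zfp532 has a mean of 0.996 FPKM and is therefore no member, and it was lower, at 1.47, 1.34 and 1.31 FPKM against 0.941, 0.562 and 0.357 FPKM (log2 change -0.57, adjusted p = 0.03).

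Zfp809, Zfp445 and Zfp638, listed for roles in silencing, were not called in the comparison of all 6 libraries. Zfp809, which binds the primer binding site of murine leukaemia virus and recruits TRIM28 to it, had 3.07, 2.83 and 2.96 FPKM with vehicle and 3.75, 2.14 and 1.95 FPKM with nanoparticles (log2 change -0.16, adjusted p = 0.56; without nanoparticle library 1, -0.38 and adjusted p = 0.0064). Zfp445, a KRAB protein that protects imprinted methylation, had 6.81, 6.87 and 7.34 FPKM with vehicle and 9.37, 4.92 and 4.73 FPKM with nanoparticles (-0.18, adjusted p = 0.60; without library 1, -0.46 and 0.0013). Zfp638, which recruits the HUSH silencing complex to unintegrated retroviral DNA, had 2.79, 2.82 and 2.78 FPKM with vehicle and 3.43, 1.97 and 1.90 FPKM with nanoparticles (-0.17, adjusted p = 0.50; without library 1, -0.37 and 0.005). In all 3, library 1 was the highest of the 6 libraries and libraries 2 and 3 the lowest. Zfp91, a ubiquitin ligase of the noncanonical NF-kappaB pathway, had 10.6, 11.3 and 11.6 FPKM against 11.3, 8.67 and 8.93 FPKM, with libraries 2 and 3 the lowest (-0.20, adjusted p = 0.26; without library 1, -0.31 and 0.0055). Zfp335, needed for T cell maturation, had 4.04, 3.23 and 3.31 FPKM with vehicle and 4.82, 1.92 and 1.67 FPKM with nanoparticles (-0.34, adjusted p = 0.43; without library 1, -0.69 and 0.0015). Some listed members showed little difference between the group means. Zfp410, the activator of Chd4, had 1.77, 1.63 and 1.88 FPKM with vehicle and 1.88, 1.94 and 1.68 FPKM with nanoparticles. Zfp830, a splicing factor, had 6.41 ± 0.937 against 6.75 ± 0.345 FPKM (SD, n = 3 each). The log2 changes of the other listed members not called were 0.30 for Zfp143, 0.24 for the SUMO ligase Zfp451, 0.22 for Zfp639, 0.19 for Zfp281, 0.12 for the double-stranded RNA-binding Zfp346, -0.01 for Zfp384, -0.13 for Zfp148 and -0.13 for Zfp407.

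The values of nanoparticle library 1 departed from those of its group in most members. On the deposited scale it held the highest value of the 6 libraries in 96 of 177 members (54.2%), compared with 29.2% of all genes tested, and the lowest in 17 (9.60%), compared with 32.6%. On the log2(FPKM + 1) scale it lay above the mean of libraries 2 and 3 in 140 members (79.1%), with a median difference of 0.27, against 47.8% and -0.03 over all genes. Nanoparticle library 3 held the lowest value of the 6 in 62 members (35.0%), compared with 21.2% of all genes. With read totals library 1 was the highest in 65 members (36.7%, against 21.2% of all genes), and with equal sums of FPKM in 71 (40.1%, against 24.1%), a check added after seeing the data. The 3 members in which library 1 lay farthest from the other nanoparticle libraries were Zfp871, Zfp971 and Zfp292. Zfp871, a KRAB gene, had 3.04, 3.06 and 3.31 FPKM with vehicle, 5.97 in nanoparticle library 1, and 1.01 and 0.83 in libraries 2 and 3. Zfp971 had 2.27, 2.75 and 2.97 FPKM with vehicle and 3.88, 0.93 and 1.38 FPKM with nanoparticles. Zfp292 had 1.85, 1.90 and 2.20 FPKM with vehicle and 3.48, 1.03 and 1.05 FPKM with nanoparticles. In each of the 3, library 1 lay above every vehicle library and libraries 2 and 3 below all of them. None was called with all libraries (adjusted p = 0.50, 0.45 and 0.72), and all were called lower without library 1 (log2 changes -1.11, -0.77 and -0.54).

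Without nanoparticle library 1, 80 of 177 members were called (45.2%, against 64.8% of all genes tested), and 57 of them were lower (30.5% of all genes were) and 23 higher (34.3% of all genes were). The median log2 change became -0.12 over the members and 0.02 over all genes. All 35 calls of the full comparison remained. Of the 142 members not called with all libraries, 45 were called without library 1, 36 of them lower, and in 30 of these 36 library 1 lay above the vehicle mean. The share of members called stayed under that of all genes with and without library 1. As given above, dendritic cell markers summed to less and macrophage markers to more in library 1 than in libraries 2 and 3. The sums of cycling cell markers were alike (14.7, 14.8 and 15.3 FPKM), but single genes were not. Mki67 was higher in library 1 (8.77 against 5.53 and 4.54 FPKM) and Cdk1 lower (1.85 against 3.49 and 4.02 FPKM). Against the direction of their sums, Irf4 and Irf8 were higher and Mrc1 and Csf1r lower in library 1. Whether these cell types have a part in the members' values was not tested.

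**Figure D3:**
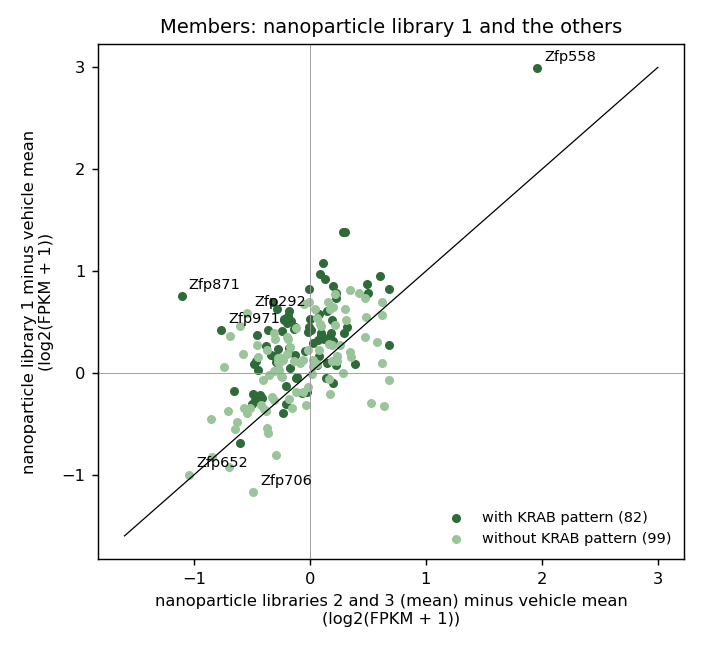
Each point is 1 of the 181 members; the horizontal axis gives the mean of nanoparticle libraries 2 and 3 minus the vehicle mean, the vertical axis nanoparticle library 1 minus the vehicle mean (both log2(FPKM + 1)), and the line marks equal values. Most points lie above the line, and Zfp871, Zfp971 and Zfp292 fall in the quadrant where library 1 is above and libraries 2 and 3 are below vehicle.

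Features of the encoded proteins, which the selection did not use, were read from the coding sequences of the annotation. A KRAB pattern was found in 82 members and a SCAN pattern, a dimerization domain, in 7. Below, with and without KRAB means with and without a match to this pattern. A KRAB box or SCAN domain that differs from its pattern is missed, and the share missed was not measured. The SCAN pattern was a fixed stretch of residues, so variants of it are not counted. The number of C2H2 fingers had a median of 9 and a maximum of 36, with 11 as the median with KRAB and 7 without, and 4 members matched the finger pattern nowhere. Beside the 33.2% of all genes tested that were called (17.0% higher, 16.2% lower), 11 of the 81 KRAB members tested were called (13.6%), 6 higher and 5 lower, with a median log2 change of 0.06. Of the 96 without a match to the KRAB pattern, 24 were called (25.0%), 8 higher and 16 lower, with a median of -0.07. None of the 6 tested members with the SCAN pattern was called by limma, with 1 at an unadjusted p under 0.05. By number of fingers, 9 of 34 members with 0 to 4, 14 of 59 with 5 to 9 and 12 of 84 with 10 or more were called. The KRAB members were also the lower expressed, with a median mean of 2.07 FPKM against 2.83 FPKM. The difference between these classes was not tested.

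By the same pattern classes, nanoparticle library 1 held the highest value of the 6 libraries in 54 of 81 KRAB members (66.7%). It did so in 42 of 96 members without a match to the KRAB pattern (43.8%), and in 29.2% of all genes tested. The median difference from libraries 2 and 3 was 0.41 with KRAB and 0.19 without. With read totals library 1 was the highest in 41 KRAB members (50.6%) and 24 of the others (25.0%), against 21.2% of all genes tested. Without library 1, 26 of the 81 KRAB members were called (19 lower) and 54 of the 96 others (38 lower), against 64.8% of all genes tested (30.5% lower). The median log2 changes were then -0.04 with KRAB and -0.16 without. None of these differences between classes was tested.

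**Figure D4:**
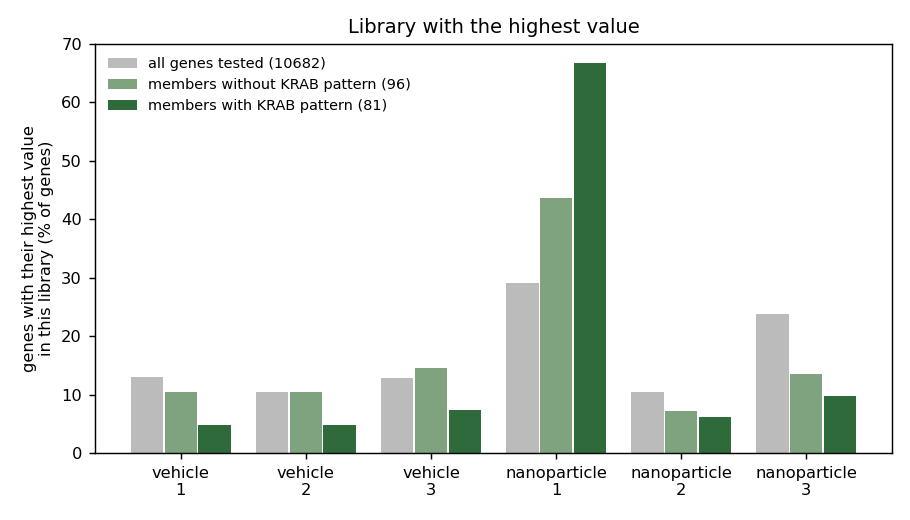
Bars give, for each library, the percentage of genes with their highest value there, for all 10682 genes tested, the 96 tested members without a KRAB pattern and the 81 with one. In nanoparticle library 1 the bars stand at 29.2%, 43.8% and 66.7%, and in every other library the KRAB bar is the lowest.

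Members lay on 20 chromosomes, 42 of them on chromosome 7 and 26 on chromosome 17. In the GENCODE M21 annotation of GRCm38, 91 members fell into 28 runs of 2 to 7 members whose gene bodies lie within 200 kb of each other. Of the 90 clustered members tested 11 were called (12.2%), and of the 87 outside clusters 24 (27.6%), against 33.2% of all genes tested. Without nanoparticle library 1 these were 31 (34.4%) and 49 (56.3%), against 64.8% of all genes tested. The difference between them was not tested. With all 6 libraries, no cluster held more than 1 called member. The runs were built from members alone. Zfp991 and Zfp992, near copies on chromosome 4 that were both called higher, lie farther apart than 200 kb and in no common run. On chromosome 17 the run from Zfp995 to Zfp946 (chr17:21879570-22456689) had 7 members with log2 changes of 0.02 to 0.43, all above 0 and none called, and library 1 was the highest of the 6 libraries in 6 of them. The run from Zfp677 to Zfp983 (chr17:21383748-21664966) had changes of -0.11 to 0.27, again with none called and library 1 highest in 6 of 7. On chromosome 7 the run from Zfp84 to Zfp146 (chr7:29768552-30169750) held changes of -0.58 to 0.32, and Zfp146, whose protein consists almost wholly of fingers, was the 1 call. Zfp146 had 8.12, 7.93 and 8.57 FPKM with vehicle and 5.58, 4.90 and 5.01 FPKM with nanoparticles (log2 change -0.58, adjusted p = 0.0046).

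**Figure D5:**
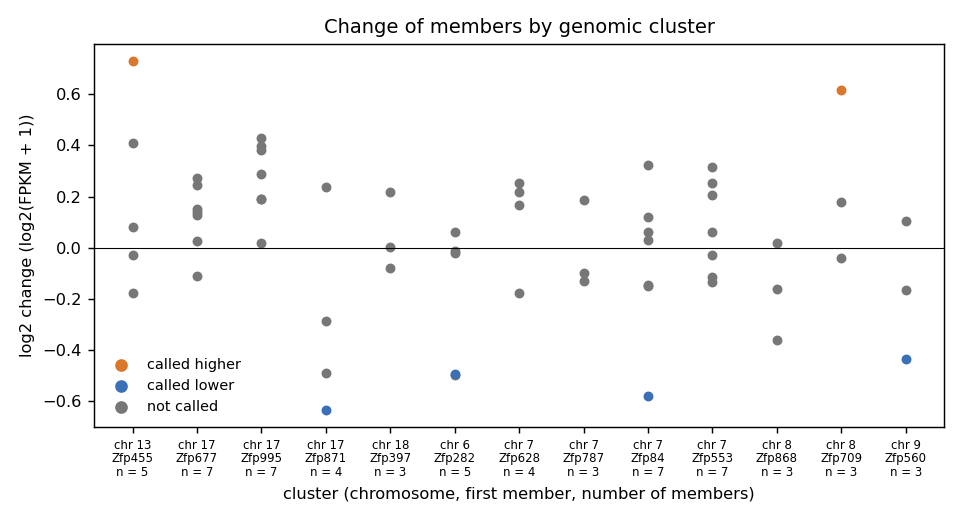
Points are members of the 13 genomic clusters with at least 3 tested members, placed by log2 change (log2(FPKM + 1) scale, nanoparticle minus vehicle) and labelled by chromosome, first member and number of members. No cluster holds more than 1 call, and the run that starts with Zfp995 is the 1 with all values above 0.

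Promoter sequences, 250 bases before to 50 after an annotated start, were available from RefSeq (GRCm38.p6) for 150 of the 181 members. They were searched on both strands for the cAMP response element TGACGTCA (CRE), the NF-kappaB consensus and the interferon-stimulated response element, written here as GAAA, any 2 bases, GAAA. The NF-kappaB motif was in 4.67% of member promoters, in 6.36% of the 7946 genes tested with an entry and in 5.14% of all 27025 genes with an entry, and in 10.2% of the 1362 genes tested that rose. The interferon element was in 1.33% of members, 4.10% of genes tested and 3.99% of all genes. The CRE was in 4.67% of members, 3.71% of genes tested and 2.03% of all genes. Among 12 members called higher with an entry, 1 held the NF-kappaB motif (Zfp617) and 1 the CRE (Zfp523). Among 16 called lower, 2 held the CRE (Zfp266 and Zfp367) and none the other motifs. A match is a description of letters and not a binding site. Promoters of 3 called members are shown 5′ to 3′ on the gene's strand, with motif letters in capitals: Zfp558, with the largest change and none of the 3 motifs at this start (chr9:18473510-18473809, minus strand), Zfp617, the increase with the NF-kappaB motif (chr8:71922575-71922874, plus strand), and Zfp367, a decrease with the CRE at this start (chr13:64152324-64152623, minus strand).
Zfp558: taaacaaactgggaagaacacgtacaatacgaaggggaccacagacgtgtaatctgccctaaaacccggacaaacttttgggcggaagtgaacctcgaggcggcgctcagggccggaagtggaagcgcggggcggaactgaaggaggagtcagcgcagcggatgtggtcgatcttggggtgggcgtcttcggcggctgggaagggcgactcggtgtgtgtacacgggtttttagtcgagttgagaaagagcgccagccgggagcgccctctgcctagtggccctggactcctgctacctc
Zfp617: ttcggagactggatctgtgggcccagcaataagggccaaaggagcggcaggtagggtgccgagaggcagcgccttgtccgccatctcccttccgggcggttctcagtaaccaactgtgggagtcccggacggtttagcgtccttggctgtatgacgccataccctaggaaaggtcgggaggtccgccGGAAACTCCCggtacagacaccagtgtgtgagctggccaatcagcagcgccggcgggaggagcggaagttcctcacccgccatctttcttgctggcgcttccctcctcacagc
Zfp367: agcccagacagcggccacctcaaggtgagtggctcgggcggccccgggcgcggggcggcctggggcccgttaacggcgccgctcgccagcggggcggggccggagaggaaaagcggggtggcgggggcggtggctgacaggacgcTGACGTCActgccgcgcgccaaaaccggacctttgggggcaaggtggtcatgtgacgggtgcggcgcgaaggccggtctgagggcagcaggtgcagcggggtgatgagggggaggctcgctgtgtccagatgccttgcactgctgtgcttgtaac
Zfp367 had 3.41, 3.56 and 3.58 FPKM with vehicle and 2.55, 2.19 and 1.90 FPKM with nanoparticles (log2 change -0.49, adjusted p = 0.014).

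Several genes listed for the corepressor machinery through which KRAB proteins act were lower with nanoparticles. The table held 30 listed genes, and the list also takes in DNA methylation genes. Of 27 tested, 10 were lower and 1, Morc3, was higher, with a median log2 change of -0.27. In all 40.7% were called, against 33.2% of all genes tested (17.0% higher, 16.2% lower). Trim28, the corepressor bound by the KRAB box, had 25.0, 24.5 and 23.9 FPKM with vehicle and 19.4, 19.3 and 19.4 FPKM with nanoparticles (log2 change -0.32, SE 0.0864, adjusted p = 0.031). Setdb1, the methyltransferase it recruits, had 6.91, 7.32 and 6.95 FPKM with vehicle and 5.35, 4.86 and 4.66 FPKM with nanoparticles (-0.44, SE 0.0927, adjusted p = 0.013). Both groups were well separated in these genes, and both genes missed the threshold when any 1 vehicle library was left out (adjusted p = 0.121 to 0.142 for Trim28 and 0.06 to 0.077 for Setdb1); Trim28 missed it also without nanoparticle library 2 or 3 (0.088 and 0.06). The heterochromatin proteins Cbx5 (5.29 ± 0.493 to 1.54 ± 0.246 FPKM, log2 change -1.31) and Cbx3 (4.11 ± 0.238 to 1.84 ± 0.526 FPKM, -0.87) fell, whereas Cbx1 was not called (6.86 ± 0.306 to 6.48 ± 0.854 FPKM, -0.08; SD, n = 3 each). Of the DNA methylation genes, Uhrf1 (8.73 ± 0.862 to 1.41 ± 0.224 FPKM, -2.01), Dnmt1 (14.7 ± 0.287 to 6.54 ± 1.44 FPKM, -1.07) and Dnmt3a (16.5 ± 0.885 to 11.0 ± 1.27 FPKM, -0.55) also fell, with n = 3 and SD as before. Uhrf1, Dnmt1 and the methyltransferase Suv39h1 (-0.59) are also expressed with DNA replication, and the cycling cell markers fell in the same libraries; their part in these values was not tested.

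Other zinc finger families gave the following counts beside the members' 19.8% and the 33.2% of all genes. Of 30 Zbtb genes tested, which pair fingers with a BTB domain, 2 were called (6.67%): Zbtb17 was higher and Zbtb46, a marker of conventional dendritic cells, lower. Of 11 Zscan and Zkscan genes, 1 was called, Zkscan6, which was higher. Of 10 Klf genes, 6 were called, with Klf6 higher and Klf2, Klf4, Klf7, Klf10 and Klf13 lower. Klf4, the gene Zfp706 is known to repress in embryonic stem cells, had 18.2, 17.4 and 18.2 FPKM with vehicle and 3.52, 2.12 and 2.03 FPKM after treatment (log2 change -2.44, adjusted p = 0.00023). Of 13 tested Zfp genes with a letter after the number, 4 were lower. Nanoparticle library 1 was the highest of the 6 libraries in 43.3% of Zbtb genes and 63.6% of Zscan and Zkscan genes, compared with 54.2% of members and 29.2% of all genes.

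The selection limit of 1 FPKM cut through a continuous range of levels. Just inside it were Zfp277 (mean 1.00 FPKM), Zfp983 (1.03) and Zfp142 (1.03), and just outside Zfp532 (0.996), Zfp748 (0.976) and Zfp74 (0.962). Of the 167 numbered Zfp genes under the limit, 5 passed the filter and 3 of these were lower. Members not tested were Zfp213, Zfp775, Zfp296 and Zfp970, which reached 1 FPKM in fewer than 3 libraries. Zfp970 had 0.716, 0.441 and 0.573 FPKM with vehicle and 3.10, 0.612 and 1.27 FPKM with nanoparticles, and Zfp213 had 0.822, 0.751 and 0.785 against 2.05, 0.877 and 1.29 FPKM, each highest in library 1. Zfp775 had 0.745, 0.749 and 0.869 against 1.76, 1.59 and 0.868 FPKM, and Zfp296 had 0.887, 0.693 and 0.564 against 0.631, 2.02 and 1.48 FPKM, so that the groups overlapped in both.

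Groups did not overlap in 61 of 177 members, 31 higher and 30 lower, against 52.1% of all genes tested (25.9% higher and 26.2% lower). All 35 called members were among the 61. Of the 35, 7 were called in every alternative in which they could be fitted: Zfp558 higher, and Zfp146, Zfp318, Zfp467, Zfp608, Zfp652 and Zfp710 lower. Zfp513 and Zfp653 were also called whichever library was left out, but missed the threshold under 1 or both of the other scalings.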

How the data were processed

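RNA was sequenced from 6 libraries (total RNA, NEBNext Ultra II, per the labels' protocols). The submitters' processing notes name CASAVA, STAR 2.5, HTSeq, edgeR 3.16.5 and DESeq2 and the builds mm10 and hg19, without roles. The authors deposited 2 tables, 1 named for read counts, whose 140388 values are identical. No header or label names their unit. They are not whole numbers and are taken here for deposited FPKM, since with GENCODE M21 exon lengths and 1 scale per library, 95.8% to 96.1% of values above 0 became whole reads (within 0.01). How reads of overlapping genes or copies were assigned is not given in the sources used here. Gene positions are those of GENCODE M21 (GRCm38), whose IDs matched 23388 of 23398 genes.

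Here, log2(FPKM + 1) was fitted, for genes that reached 1 FPKM in 3 or more libraries, with limma 3.58.1 in R 4.3.3 (lmFit, eBayes with trend, group as the single term), with Benjamini-Hochberg adjustment at 0.05. Such log2 changes understate changes of low genes. The fit was also run on simulated data with the spread of the vehicle libraries alone. That run does not cover the wider spread of the nanoparticle libraries, and nothing here rests on it. Fingers, KRAB and SCAN boxes were found by residue patterns in translated coding sequences. Shared stretches were exact 50-base matches of a member's longest coding transcript to annotated transcripts of other genes. Exon overlaps were sought with protein-coding and long noncoding genes only. Figures were drawn with matplotlib 3.10.9 in Python 3.11.15.

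Members, lists and tests were chosen with earlier results of these data known. Named members are the 8 largest called increases and 8 largest called decreases with groups that do not overlap, the 6 most abundant, the 3 on each side of the level limit, the 3 in which nanoparticle library 1 lies farthest from the others of its group, and 26 of known role, and of the corepressors up to 6 with the smallest adjusted p, Trim28 and Setdb1. Other genes are named as members of a count or as a neighbour, copy or partner of a named gene. Alternatives changed the pseudocount, filter, scaling, trend and replicate block, left out each library, and, added after seeing the data, used limma-voom on recovered reads.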

Additional observations from a re-analysis of the deposited data

How the results depend on the processing

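No called member changed sign under any alternative. Some members not called changed sign with read totals, among them Zfp984 (0.30 to -0.006) and Zfp263 (0.27 to -0.03). Zfp207, also among them, went from 0.30 to -0.02 with read totals and -0.15 with equal sums of FPKM. A pseudocount of 0.1, limma without the trend and limma-voom on recovered reads (added after seeing the data) kept every count within 1.5 times, with 33, 34 and 31 members called. Without the filter on low values 19 members were called (9 higher, 10 lower). Scaling by recovered read totals gave 3 members higher and 37 lower, a median log2 change of -0.22 and 20 corepressors called, and scaling to equal sums of FPKM gave 1 and 47, a median of -0.31 and 23 corepressors. The replicate block called 17 members (9 higher, 8 lower) and 5 corepressors; replicate numbers are not shown to pair the libraries, since same-numbered deviations correlated at 0.07, 0.11 and -0.06. Leaving out 1 library gave 11 to 80 members called, 4 to 23 higher and 7 to 57 lower, with medians of -0.12 to 0.06, 2141 to 6923 genes called and 5 to 19 corepressors. The highest counts came without nanoparticle library 1, and the lowest without vehicle library 2 or 3 (11 members each) and vehicle library 1 (14); without nanoparticle library 2, 21 members were called (10 lower) and 7 corepressors, and without nanoparticle library 3, 28. The cause of these shifts was not tested. Members tested rested on as few as 20 reads in a library, and no detection limit was measured.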
